A study of Mus musculus with 8 samples.

Results

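The comparison set 2 reciprocal congenic lines of mouse embryonic stem cells against each other, with 2 technical replicate libraries of each, 4 of the 8 libraries of the series. The libraries were assigned to lines by their labels, and the comparison was picked with results of these data known. Each is an H3K27ac HiChIP library, in which a read pair joins DNA ends that lay close together in the nucleus, after pull-down of fragments carrying histone H3 acetylated at lysine 27. B6-13D2 is the line QJ 6-1 of the strain B6.D2-(rs30079041-rs51756099)/Bakr, a C57BL/6J genome with an interval of chromosome 13 from DBA/2J. D2-13B6 is the line XE 2-4 of the strain D2.B6-(rs29224292-rs13469455)/Bakr, a DBA/2J genome with the interval from C57BL/6J (the series text gives another end marker for this strain, and marker positions were not used here). The parental lines B6 (C57BL/6J, line B6 5-1) and D2 (DBA/2J, line D2 5-5), with 2 libraries each, shared no library with the comparison and are used beside it. All lines were grown with LIF and the inhibitors PD0325901 and CHIR99021, and no line carried another labelled treatment or allele. Each genotype was 1 cell line, so a p-value measures a difference between these lines against the spread between technical libraries, not against independently derived lines.

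H3K27 acetylation marks active promoters and enhancers, and a HiChIP contact reports that an acetylated site lay near another site. A congenic line carries a chromosome segment of one inbred strain in the genome of another. By genotype, the DNA sequence of these lines should therefore differ outside the exchanged segment as that of their 2 parental strains does. Inside it the difference should run the other way round. How far their contacts did so is described below. Mouse chromosome 13 holds a cluster of zinc finger genes of the KRAB family, whose proteins bind DNA and recruit the corepressor TRIM28 to form heterochromatin.

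Reference promoters are shown first for 6 genes that the results turn on, 4 with strong differences between the lines in either direction and 2 from a part of chromosome 13. Each sequence is the RefSeq promoter on GRCm38.p6, 250 bases before to 50 bases after the annotated start, written 5′ to 3′ on the gene's strand, with every CpG dinucleotide (CG, the same letters on both strands) in capitals. These are C57BL/6J reference sequences, and DBA/2J differences within them were not examined. Crxos (chr7:15882367-15882666, plus strand) and Plekhm3 (chr1:64956775-64957074, minus strand) lay in anchors higher in D2-13B6. Nod1 (chr6:54972563-54972862, minus strand) and Trim12a (chr7:104315446-104315745, minus strand) lay in anchors lower there. Golm1 (chr13:59675735-59676034, minus strand) and Nlrp4f (chr13:65205667-65205966, minus strand) lay in anchors of chromosome 13 whose difference ran against that of the parental strains.
Crxos: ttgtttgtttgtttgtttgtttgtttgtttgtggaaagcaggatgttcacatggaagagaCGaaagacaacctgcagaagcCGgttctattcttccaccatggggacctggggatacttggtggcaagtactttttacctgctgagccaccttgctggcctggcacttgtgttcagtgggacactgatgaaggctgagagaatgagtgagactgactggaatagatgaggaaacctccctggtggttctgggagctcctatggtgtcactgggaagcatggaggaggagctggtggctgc
Plekhm3: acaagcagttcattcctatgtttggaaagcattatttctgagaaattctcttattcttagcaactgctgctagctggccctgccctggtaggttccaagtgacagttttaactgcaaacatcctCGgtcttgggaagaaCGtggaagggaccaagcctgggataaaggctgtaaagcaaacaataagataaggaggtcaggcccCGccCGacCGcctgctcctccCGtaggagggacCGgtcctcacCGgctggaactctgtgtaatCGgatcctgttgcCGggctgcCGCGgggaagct
Nod1: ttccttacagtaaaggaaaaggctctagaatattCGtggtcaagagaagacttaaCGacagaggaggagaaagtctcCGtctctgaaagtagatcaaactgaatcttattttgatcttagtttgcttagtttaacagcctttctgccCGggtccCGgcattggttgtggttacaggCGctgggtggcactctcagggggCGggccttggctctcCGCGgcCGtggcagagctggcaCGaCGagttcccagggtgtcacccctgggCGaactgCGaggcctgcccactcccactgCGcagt
Trim12a: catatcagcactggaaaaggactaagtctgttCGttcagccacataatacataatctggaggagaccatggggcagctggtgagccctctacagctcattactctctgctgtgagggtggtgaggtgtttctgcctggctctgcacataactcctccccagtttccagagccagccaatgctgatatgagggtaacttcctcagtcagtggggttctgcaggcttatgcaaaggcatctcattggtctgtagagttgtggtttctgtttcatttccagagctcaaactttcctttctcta
Golm1: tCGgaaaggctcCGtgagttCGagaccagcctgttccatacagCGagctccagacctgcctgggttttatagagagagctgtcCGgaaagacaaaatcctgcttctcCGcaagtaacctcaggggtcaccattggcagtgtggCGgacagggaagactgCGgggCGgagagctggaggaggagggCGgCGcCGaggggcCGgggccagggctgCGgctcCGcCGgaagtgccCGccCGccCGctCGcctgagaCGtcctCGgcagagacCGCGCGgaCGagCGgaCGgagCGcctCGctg
Nlrp4f: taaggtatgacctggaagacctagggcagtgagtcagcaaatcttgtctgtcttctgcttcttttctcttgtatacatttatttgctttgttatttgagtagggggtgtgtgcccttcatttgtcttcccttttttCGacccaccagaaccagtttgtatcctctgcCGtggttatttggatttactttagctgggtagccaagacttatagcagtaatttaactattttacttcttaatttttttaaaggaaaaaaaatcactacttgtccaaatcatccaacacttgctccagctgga
The promoters of Crxos and Nlrp4f held 2 CpG each and that of Trim12a held 1. Those of Plekhm3 and Nod1 held 12 and 15, and that of Golm1 held 30. Over 32851 RefSeq promoters of this length, the median was 7, and 11.7% held as many as Golm1 against 85.9% for Crxos and 94.6% for Trim12a. All 6 genes printed matched by symbol, and 12014 of the 32851 promoters lay in an anchor that was tested.

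The 2 B6-13D2 libraries held 982278 and 1357176 read pairs and the 2 D2-13B6 libraries 1395052 and 1425304, against 737955 to 952040 in the 4 parental libraries. Pairs inside 1 anchor took 32.7% and 33.4% of the B6-13D2 libraries and 32.9% and 33.1% of the D2-13B6 libraries. Pairs spanning at least 100 kb took 26.8% and 25.7%, against 27% and 26.9%. Chi-square per degree of freedom between the technical replicates was 1.05 in D2-13B6 and 1.16 in B6-13D2, slightly above sampling noise, so they were kept apart. Read pairs had no molecular identifiers, and every interval printed for a share or ratio covers counting error alone.

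The first question was how many acetylated sites differed between the 2 lines. An anchor is a merged region at either end of a loop, and its value is the sum of the counts of all loops touching it. Anchors were tested when 2 libraries or more had 10 counts or more. Of 21211 tested, 24.5% passed (edgeR's quasi-likelihood test, false discovery rate 0.05), 2490 higher (11.7%) and 2704 lower (12.7%) in D2-13B6. An anchor or loop past that threshold is called in what follows, and the direction is always D2-13B6 minus B6-13D2. In 24.4% of tested anchors the call also came with libraries that did not overlap between the lines. Loops were tested when 2 libraries or more had 5 counts or more. Of 44706 such loops, 8.59% were called, 1864 higher (4.17%) and 1975 lower (4.42%), and 8.57% were called with libraries that did not overlap. These counts changed with the libraries and the tool used. Without the first or the second D2-13B6 library, 3207 and 3013 anchors were called, and without 1 of the 4 congenic libraries 1896 to 2477 loops. DESeq2 called 2176 anchors and 1004 loops. Without the count filter, edgeR called 52 loops, 36 higher and 16 lower. In the same fit, D2 against B6 gave calls in 11.8% of anchors and 2.65% of loops, from shallower libraries.

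Chromosome 11 stood apart. It took 10.1% and 10.3% of the read pairs of the B6-13D2 libraries, and 13.9% and 14.0% of those of the D2-13B6 libraries. Both D2-13B6 libraries lay above all the other 6, among which the share ran from 10.0% to 10.6%. The means were 10.2% ± 0.183 and 13.9% ± 0.0465 (SD, n = 2 each), a ratio of 1.37, and the exact 95% intervals of single libraries reached up to 10.4% in B6-13D2 and down to 13.8% in D2-13B6. An exact two-sided permutation test of 2 against 2 libraries gave p = 0.333, the smallest this design allows. The same ratio for D2 over B6 was 0.999. Chromosome 13 lay at the other end, with 3.31% and 3.16% of pairs in B6-13D2 and 2.80% and 2.82% in D2-13B6, a ratio of 0.869. That was the lowest among the autosomes other than 11, of which chromosome 17 had the highest ratio, at 1.04. With the counts of chromosome 11 removed from every total, the ratio of chromosome 13 was 0.907.

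**Figure D1:**
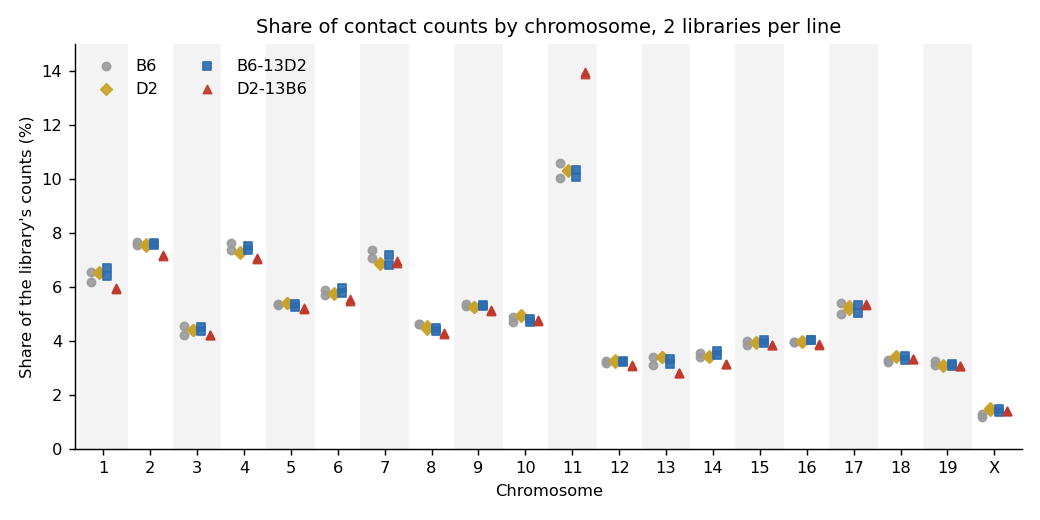
Share of each library's read pairs, in percent, by chromosome, with 1 point per library and 2 libraries per line. On chromosome 11 both D2-13B6 points lie near 14.0% and the other 6 libraries between 10.0% and 10.6%, and on chromosome 13 the D2-13B6 points are the lowest.

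On chromosome 11, 793 of 1660 tested anchors were called (47.8%), 759 of them higher and 34 lower in D2-13B6. The median log2 difference over its anchors was 0.50, a 1.42-fold difference, and 88.1% of its tested anchors were higher. In the parental comparison the median of the same anchors was 0.0045 and 169 were called. In windows of 5 Mb holding at least 20 tested anchors, the median was above 0 in 23 of 24 windows along the chromosome. It was highest at 65 to 70 Mb, at 0.65, and below 0 at 110 to 115 Mb alone, at -0.09 over 27 anchors. Because the shift ran along nearly the whole chromosome, chromosome 11 is kept apart in what follows. Copy number of chromosome 11 and acetylation per copy cannot be told apart in these libraries.

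**Figure D2:**
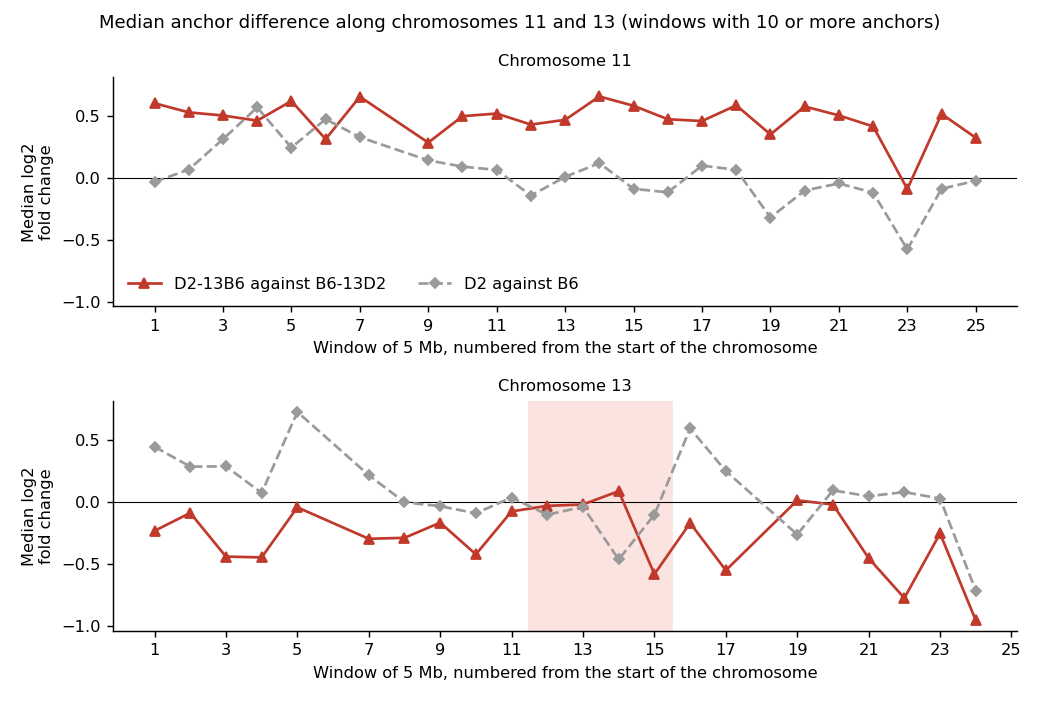
Median log2 difference of tested anchors in consecutive windows of 5 Mb along chromosomes 11 and 13, numbered from the start of the chromosome, for D2-13B6 minus B6-13D2 and for D2 minus B6. On chromosome 11 nearly every window lies near 0.5 in the congenic comparison, and on chromosome 13 the windows lie mostly below 0 with windows 12 to 15 (55 to 75 Mb) shaded. Windows with at least 10 anchors are drawn.

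Off chromosomes 11 and 13, 4179 of 18635 anchors were called (22.4%), 1676 higher and 2503 lower in D2-13B6, with a median log2 difference of -0.025 over all tested. With 1 scaling factor per chromosome the split was 1870 higher and 2166 lower. Without the first or the second D2-13B6 library, 2505 and 2334 of these anchors were called. The median size of a called difference was 1.74-fold. Of loops off these chromosomes, 3017 of 38431 were called, 1201 higher and 1816 lower, and 1469 to 1973 without 1 congenic library. With chromosome 11 left out of the fit, 1250 loops were higher and 1610 lower, and with 1 factor per chromosome 1308 and 1548. Splits into higher and lower given below use the common factor unless stated. On the 17 autosomes other than 11 and 13, between 17.6% and 28.6% of anchors were called. The median per chromosome ran from -0.14 on chromosome 14 to 0.07 on chromosome 17. The X chromosome had 45 higher and 45 lower anchors of 471, and its median was 0.032 against 0.30 in D2 minus B6.

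Of 8228 tested anchors at a protein-coding start off chromosomes 11 and 13, 20.1% were called, 8.31% higher and 11.8% lower. The 10 with the smallest false discovery rate in each direction, at least 1 Mb apart and with libraries that did not overlap, were taken for description. Their levels were chosen by this test, so the values describe them. The highest-ranked one that was higher in D2-13B6 held the start of Crxos, a homeobox gene beside Crx (chromosome 7, 15880001 to 15910000). It had 41.5 and 44.9 normalised counts (CPM, the anchor's count scaled to library size) in the B6-13D2 libraries and 262 and 262 in the D2-13B6 libraries. Both D2-13B6 libraries were thus several fold above both B6-13D2 libraries, a log2 difference of 2.59 (SE 0.14, edgeR false discovery rate 1.58e-29). The anchor of Plekhm3, which encodes a protein with pleckstrin homology domains (chromosome 1, 64945001 to 64985000), had 123 and 107 CPM in B6-13D2 and 470 and 460 in D2-13B6. Its log2 difference was 2.02 (SE 0.12, edgeR false discovery rate 3.09e-27). Nearby on chromosome 1, the anchor of Adam23, a membrane protein of the disintegrin family, had 42.8 and 33.6 CPM against 168 and 166. In all 3 anchors the libraries of each line lay close together beside the gap between the lines.

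The other 7 higher promoters follow in order of their false discovery rate. Apela, the gene of a peptide ligand of the apelin receptor, had 246 and 212 CPM in B6-13D2 and 503 and 519 in D2-13B6. Blm, a RecQ DNA helicase, had 128 and 131 CPM against 296 and 314, and Itgav, the alpha V integrin subunit, had 118 and 107 against 277 and 270. D2-13B6 was 2.24-fold, 2.35-fold and 2.44-fold higher at these genes. Hmga2, an architectural chromatin protein of early development, had 27.7 and 24.8 CPM against 95.8 and 83.0. Fads1, a fatty acid desaturase, had 164 and 151 CPM against 348 and 369, and Glo1, the glyoxalase that clears methylglyoxal, had 164 and 197 against 388 and 377. Olfr924, an olfactory receptor gene, was the shallowest of the set, with 5.66 and 1.40 CPM against 27.4 and 34.3. Over the 10 anchors the fold ran from 2.10 to 9.37, and all 40 called loops that touched them, of 116 tested, were higher in D2-13B6. An anchor's value is the sum of its loops, so this agreement follows largely from how the anchors were picked. Over all tested loops off chromosomes 11 and 13, 7.85% were called.

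The lower promoter anchor with the smallest false discovery rate held Nod1, a cytosolic sensor of bacterial peptidoglycan (chromosome 6, 54935001 to 54975000). Its anchor had 296 and 320 CPM in the B6-13D2 libraries and 46.3 and 46.5 in the D2-13B6 libraries. The libraries lay far apart, with a log2 difference of -2.73 (SE 0.13, edgeR false discovery rate 4.94e-32). Trim12a, of the TRIM family of ubiquitin ligases that includes the retroviral restriction factor TRIM5 (chromosome 7, 104295001 to 104305000), had 59.8 and 57 CPM against 3.60 and 3.16, a log2 difference of -4.08. The neighbouring anchor with its RefSeq promoter was lower by a log2 difference of -5.03. Scaf4, a factor that binds the RNA polymerase II tail, had 189 and 187 CPM against 49.9 and 46.0. Clcn3, a chloride and proton exchanger of endosomes, had 379 and 330 CPM against 114 and 114.

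Tcf7l2, a DNA-binding partner of beta-catenin in Wnt signalling, had 123 and 136 CPM in B6-13D2 and 38.2 and 37.0 in D2-13B6. The testis-expressed gene Tex21 had 233 and 248 CPM against 76.0 and 73.5, and Ppp2r3d, a regulatory subunit of protein phosphatase 2A, had 66.1 and 66.8 against 12.1 and 10.8. In each of these 3 anchors both D2-13B6 libraries lay several fold below both B6-13D2 libraries. The anchor of Ubd, a ubiquitin-like modifier, and Olfr94 had 193 and 171 CPM against 65.2 and 63.1. Gm21915 had 352 and 394 CPM against 156 and 152. Mid1, a microtubule-binding ubiquitin ligase gene at the boundary of the pseudoautosomal region of the X chromosome, had 28.9 and 28.0 CPM against 0.450 and 1.35. All 41 called loops touching the 10 lower anchors, of 74 tested, were lower too, which again follows largely from the anchor's value being their sum. Trim12a and the olfactory receptor genes have close relatives in the genome, and how read pairs that fit several copies were placed is not given in the sources used here.

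**Figure D3:**
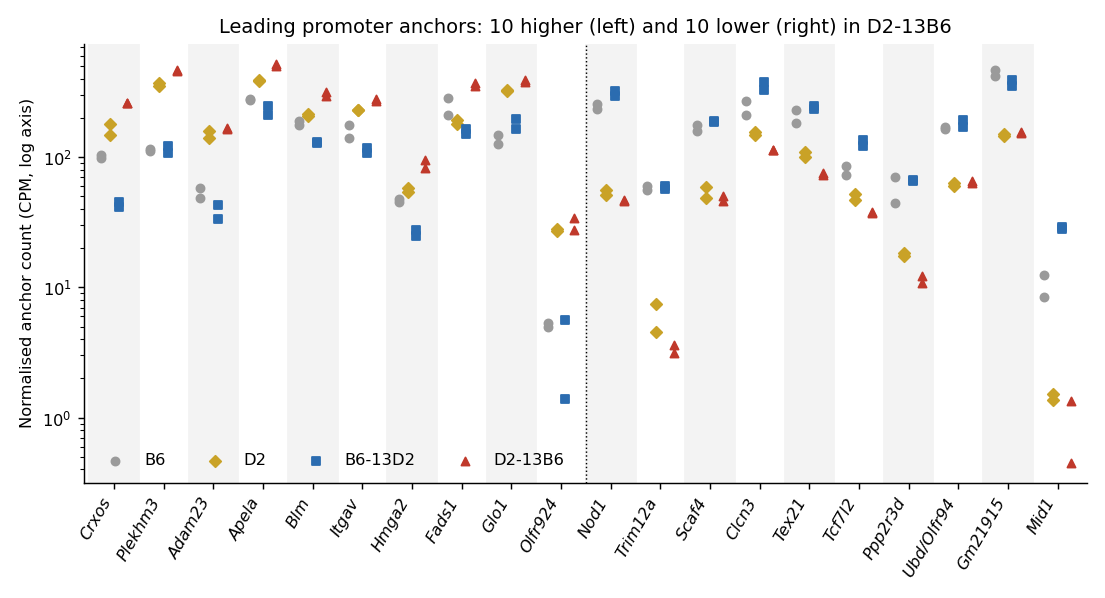
Normalised counts (CPM) in each of the 8 libraries, on a log axis, for the 20 named promoter anchors off chromosomes 11 and 13. In every column both D2-13B6 points lie on one side of both B6-13D2 points, and the D2 and B6 points are drawn beside them.

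Among anchors without a protein-coding start, the 3 named higher ones differed by 13.0-fold to 40.1-fold, and the 3 lower ones by 2.81-fold to 10.7-fold. An anchor on chromosome 6 (12865001 to 12870000) had 3.15 and 2.34 CPM in B6-13D2 and 110 and 110 in D2-13B6, a log2 difference of 5.32. Its loop to 12875001 to 12880000 had 1 and 2 counts in B6-13D2 and 233 and 226 in D2-13B6, a ratio of count rates of 127 (exact 95% interval 43.2 to 618). Anchors on chromosome 10 (8535001 to 8545000) and chromosome 7 (34520001 to 34525000) were higher by 4.55 and 3.70 on the log2 scale. In all 3, both B6-13D2 libraries lay far below both D2-13B6 libraries. On the lower side, an anchor on chromosome 6 (136990001 to 137005000) differed by -2.53, an anchor at the small RNA gene Gm22365 on chromosome 19 by -3.42, and an anchor at Gm25617 in the body of Gsk3b, a kinase of the Wnt pathway, by -1.49. All 8 called loops of the 3 higher anchors and all 24 of the 3 lower anchors went the same way as their anchor, whose value includes them.

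Named loops between distinct anchors touched several of these sites and others. The loop on chromosome 10 from 8535001 to 8565000 had 3 and 3 counts in B6-13D2 and 193 and 200 in D2-13B6. The loop from the chromosome 7 site to Gm12784 had 3 and 16 counts against 216 and 236, and a loop in the body of Immp2l, a mitochondrial inner membrane peptidase gene on chromosome 12, had 11 and 4 against 220 and 179. These loops were 4.32 to 5.73 higher on the log2 scale. Among the lower ones, the loop from Tex21 to Mthfd1, a folate enzyme gene, had 137 and 194 counts in B6-13D2 and 42 and 50 in D2-13B6. The loop between the Trim12a anchors had 43 and 51 counts against 1 and 1, a ratio of 56.7 in favour of B6-13D2 (exact 95% interval 15.3 to 475). A loop of Ppp2r3d had 59 and 73 counts against 9 and 8, and a loop in Pknox2, a homeobox gene, had 79 and 116 against 18 and 26.

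The next question was whether the lines differed as their parental strains do. Of the 4179 called anchors off chromosomes 11 and 13, 3242 went the same way in D2 minus B6 (77.6%, exact 95% interval 76.3% to 78.8%), against 62% of all tested anchors. Per autosome, the share ran from 67.0% on chromosome 15 to 83.4% on chromosome 17. Across the 18635 anchors, the log2 differences of both comparisons correlated at r = 0.49. Anchors are not independent replicates, and the comparisons share no library. The parental comparison called 2215 of these anchors, and 1213 were called in both, which is 54.8% of the parental list and 29.0% of the congenic list. Of the shared calls, 1145 had the same direction and 68 the opposite one. The other 2966 congenic calls were not called between the parents, and 70.7% of them had the same sign there.

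**Figure D4:**
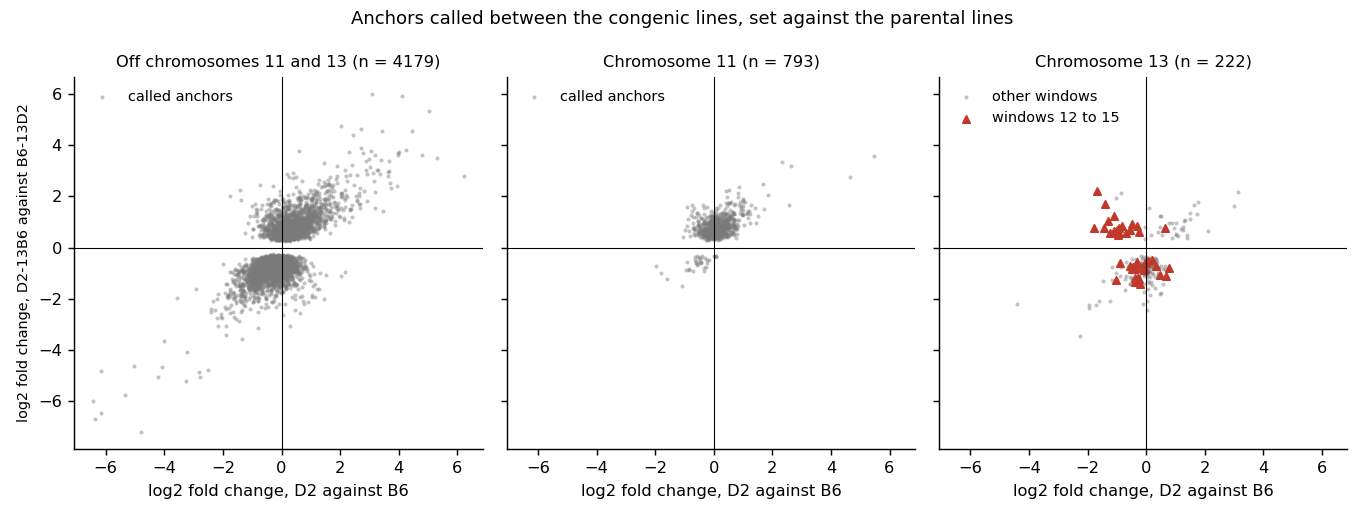
Log2 difference of each called anchor in D2 against B6 (horizontal) and in D2-13B6 against B6-13D2 (vertical), for 4179 anchors off chromosomes 11 and 13, 793 on chromosome 11 and 222 on chromosome 13. Off chromosomes 11 and 13 most points lie in the quadrants of equal sign (77.6%), on chromosome 11 nearly all lie above 0, and on chromosome 13 triangles mark windows 12 to 15 (55 to 75 Mb), with many in the upper left quadrant.

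Larger differences more often had the sign of the parental strains. Among called anchors with a log2 difference under 1 in size, 2777 in number, 74.2% had the parental sign and 23.0% were called between the parents. Between 1 and 2, the 1210 anchors had the parental sign in 83.1% and a parental call in 36.1%. Between 2 and 3, these shares were 89.2% and 62.6% of 139 anchors. Of the 53 anchors with a difference of 3 or more, 52 had the parental sign and 49 were called between the parents. The share with a protein-coding start was 48.0%, 24.0%, 14.4% and 20.8% along the same classes. In that last class, 42.9% of the lower anchors held a start against 6.25% of the higher ones.

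Most of the named promoters had the sign of the strains. Of the 10 higher ones, 9 had the parental sign and 7 also a parental call in that direction, and all 10 lower ones had both. Plekhm3 differed by 1.68 between the parents, Nod1 by -2.19 and Glo1 by 1.23. Fads1 was the exception in sign, with a parental log2 difference of -0.42. In size, 6 of the higher and 3 of the lower promoters departed from the parents in the test given next. Hmga2 and Blm, at 0.25 and 0.20, were not called between the parents. The difference between both comparisons was itself tested in the same fit and called in 6.16% of all tested anchors, 689 higher (3.25%) and 617 lower (2.91%), and in 0.986% of loops (0.561% higher and 0.425% lower). This count moved when single libraries were left out. Without the first B6, the first D2, the second D2, the first D2-13B6 or the second D2-13B6 library, 655, 625, 497, 665 and 509 anchors passed. DESeq2 passed 374. Of loops, 441 passed, and 164 without the first B6, 264 and 186 without the first and second D2, 240 without the first B6-13D2, and 235 and 223 without the first and second D2-13B6 library. DESeq2 passed 127 loops, and edgeR without the count filter 0 (6352 at an unadjusted p under 0.05). Off chromosomes 11 and 13, 890 anchors passed it, 352 higher and 538 lower.

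Sites whose congenic difference opposed the parental one were looked up after their values were seen. At Obox6, a homeobox gene of the oocyte and early embryo (chromosome 7, 15830001 to 15870000), the B6-13D2 libraries had 31.5 and 30.4 CPM and the D2-13B6 libraries 170 and 167. The parental libraries had 138 and 131 CPM in B6 and 79.3 and 81.3 in D2. B6-13D2 was thus the lowest and D2-13B6 the highest of the 4 lines, with log2 differences of 2.45 (edgeR false discovery rate 2.28e-25) and -0.75 in the parental comparison. Obox6 and Crxos lie side by side on chromosome 7, and at Crxos the parental difference was 0.70 against 2.59 here. At Boll, an RNA-binding protein gene of germ cells on chromosome 1, the anchor at the start differed by 1.63 here and -0.99 between the parents. An anchor in the body of the gene differed by 2.24 and -1.41. In the body of Aass, a lysine degradation enzyme gene, the order was the reverse, with -1.07 here and 1.53 between the parents.

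Kinds of loop differed in how often they were called. Off chromosomes 11 and 13, 18.9% of 4087 loops inside 1 anchor were called, 266 higher and 508 lower. Of loops between distinct anchors, 4.15% of promoter to promoter loops, 6.73% of promoter to distal loops and 10.6% of distal to distal loops were called. By span, the share ran from 11.3% under 50 kb to 2.69% in the longest class. By depth, it ran from 1.94% of loops with under 30 counts over the 4 libraries to 29.1% of those with 300 or more. Loops inside 1 anchor had a median of 105 counts, and the classes between anchors 28 to 32, so depth moved with loop class, and its part in these shares was not tested.

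Anchors without a protein-coding start were called in 24.2% of 10407 cases and those with one in 20.1% of 8228. Low GC content went with more calls, from 26.7% of anchors under 40% GC to 14.8% at 50% or more. The correlation of the log2 difference with GC across anchors was 0.045 here and -0.20 in the parental comparison. Promoter anchors were also split by the CpG count of their RefSeq promoter, the richest where an anchor held several. With under 5 CpG, 27.8% of 609 anchors were called and 10.2% were called with at least a 2-fold difference. With 25 or more, 17.0% of 2781 were called and 2.27% with at least a 2-fold difference. Depth ran the other way, with a median of 21.3 CPM in the first class and 33.1 in the last.

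A map along the chromosomes was made from the median of each window. Of 352 windows of 5 Mb with at least 20 tested anchors off chromosomes 11 and 13, 158 had a median above 0 and 194 below. The highest median, 0.79, lay at 90 to 95 Mb of chromosome 15, a window with Prickle1, a planar cell polarity gene, whose anchor was higher by 1.10, and with anchors in the bodies of Prickle1 and Pphln1 at 2.21 and 1.95. The lowest, -0.91, lay at 60 to 65 Mb of chromosome 19, where Csf2ra, a cytokine receptor subunit gene, differed by -2.01 and Zfp950 by -1.83. Further low windows lay at 140 to 145 Mb of chromosome 2, with a median of -0.81, and at 70 to 75 Mb of chromosome 14, with a median of -0.80. The first held Esf1 and Ndufaf5 at -1.98 and Kat14, a histone acetyltransferase complex gene, at -0.91. The second held Sucla2, a subunit of the citric acid cycle enzyme succinyl-CoA ligase, at -1.09 and the anchor of Lpar6 and the tumour suppressor Rb1 at -0.68. The most densely called window was 135 to 140 Mb of chromosome 6, with 29 of 46 anchors called, of which 26 had the parental sign. It held Rerg, a Ras-like GTPase gene, at -1.50 and Eps8, an actin regulator, at -1.20. Of 191 windows with at least 10 called anchors, 9 had the parental sign in fewer than 50% of them.

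On chromosome 13, 222 of 916 anchors were called (24.2%), 55 higher and 167 lower in D2-13B6, with a median of -0.18. With 1 factor per chromosome, which brings the median of each chromosome near 0, the split was 94 higher and 100 lower. That scaling takes out any shift of the whole chromosome, so it cannot show what the excess of lower anchors rests on. With RLE factors, another common scaling, the split was 55 higher and 166 lower. Without the second D2-13B6 library, 135 were called. Of 19 windows with at least 20 anchors, 17 had a median below 0, the lowest at 105 to 110 Mb with -0.78, where all 16 called of 27 anchors were lower. The stretch from 55 to 75 Mb was picked out with results of these data known. Outside it, 44 anchors were called in both comparisons, 42 with the same direction and 2 with opposite directions. Inside it, 18 were called in both, 2 with the same direction and 16 with opposite ones. Of all 45 anchors called inside it with a common factor, whether or not the parents differed, 20 had the parental sign. These were 12 of 18 at 55 to 65 Mb and 1 of 18 at 65 to 70 Mb. At 70 to 75 Mb they were 7 of 9. With 1 factor per chromosome, 13 of 44 called anchors had the parental sign. By part, it was 7 of 18 at 55 to 65 Mb and 1 of 21 at 65 to 70 Mb. At 70 to 75 Mb it was then 5 of 5. Of the loops called in both, all 30 outside the stretch had the same direction and all 10 inside it had opposite ones. Of all 38 loops called inside it, 16 had the parental sign.

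The reversal was densest at 65 to 70 Mb. There 18 of 52 anchors were called, 14 higher and 4 lower in D2-13B6. The median was 0.087, against -0.46 in D2 minus B6, and the log2 differences of the 52 anchors correlated at -0.54 between both comparisons. With 1 factor per chromosome 21 were called, 19 higher and 2 lower, and the median was 0.30, against -0.51 in D2 minus B6. The 16 anchors called in opposite directions inside the stretch lay between 59645001 and 67805000, and 16 of all 18 on the chromosome were higher in D2-13B6. Named here after their values were seen, they included Golm1, Fancc, Nlrp4f and a run of zinc finger genes.

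At Golm1, a Golgi membrane protein gene whose CpG-rich promoter is printed above, the anchor had 23.9 and 24.8 CPM in B6-13D2 and 46.3 and 41.0 in D2-13B6. The parental libraries had 62.3 and 53.4 CPM in B6 and 31.2 and 34.2 in D2. B6 and D2-13B6 were thus the higher pair. At Fancc, a Fanconi anaemia DNA repair gene, B6-13D2 had 28.9 and 22.9 CPM and D2-13B6 61.1 and 57.7, against 77.2 and 89.2 in B6 and 39.99 and 37.2 in D2. At Nlrp4f, an NLR family gene of oocytes, B6-13D2 had 95 and 87.8 CPM and D2-13B6 168 and 145, against 219 and 198 in B6 and 67.8 and 86.6 in D2. Its log2 difference was 0.78 (SE 0.13, edgeR false discovery rate 1.5e-06) here and -1.44 between the parents.

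The anchor of Zfp459 and Zfp874a had 140 and 141 CPM in B6-13D2, 214 and 234 in D2-13B6, 210 and 226 in B6 and 139 and 162 in D2. Zfp748 differed by 0.51 here and -0.96 between the parents, the anchor of Zfp729b and Zfp729a by 0.75 and -0.93, the next anchor of Zfp729a by 1.03 and -1.29, and an anchor near Zfp493 by 0.57 and -1.23. The anchor of Zfp456 ran the other way, with -0.82 here and 0.79 between the parents. In each of these zinc finger anchors, B6 and D2-13B6 lay on one side and D2 and B6-13D2 on the other. Calls in opposite directions, by which they were picked, largely require this. The largest reversal was an anchor with Gm48360 and other predicted genes (66540001 to 66605000), at 10.1 and 11.2 CPM in B6-13D2 and 49.9 and 49.6 in D2-13B6, a log2 difference of 2.21 against -1.69 between the parents. These zinc finger genes are near copies of each other, so counts may be split among them.

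Outside the stretch from 55 to 75 Mb, the sites of chromosome 13 with the smallest false discovery rates mostly had the parental sign. The anchor of Btn2a2, a butyrophilin gene that modulates T cells, differed by -2.24 (parental -1.71), and its loop to Abt1 had 263 and 352 counts in B6-13D2 and 83 and 104 in D2-13B6. Stard3nl, a sterol-transfer-like endosomal protein, differed by -2.25 (parental -1.94), and the anchor of Nnt, the mitochondrial transhydrogenase, and Paip1 by -2.08 (parental -1.24). On the higher side were Ankrd31, a meiosis gene, at 1.68 (parental 1.64), an anchor at 19950001 to 19955000 at 1.63 (parental 3.01) and an anchor in Ror2, a Wnt receptor, at 0.80 (parental 0.47). An anchor near Cetn3 differed by -2.42 here and by 0.019 between the parents. Inside the stretch, the anchor of 2010111I01Rik (63265001 to 63285000) had the parental sign, at -1.21 here and -0.37 between the parents, where it was not called.

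To describe chromosome 11 within itself, its anchors were tested again with 1 scaling factor and library total per chromosome. The share called was then 21%, 162 higher (9.76%) and 186 lower (11.2%), and 77.6% of the called had the parental sign, against 63.6% with a common factor. By false discovery rate, the leading higher anchors lay in the body of Acyp2, an acylphosphatase gene, at 2.82, and from 88885001 at 1.38. They also lay at Lyrm7 and Hint1 at 0.96, and at Vps53, a subunit of a Golgi tethering complex, at 1.23. The leading lower ones were Gm12092 at -1.34, an anchor from 57535001 at -1.73, Gm25058 at -1.25 and an anchor in Nxn, a thioredoxin-family gene, at -0.98. In 7 of these 8 anchors the parental comparison was called in the same direction, and at Gm25058 it was -0.25 and not called. For loops of chromosome 11, 658 of 4822 were called with a common factor and 328 with 1 per chromosome. With a common factor, 339 to 429 were called without 1 of the 4 congenic libraries, and DESeq2 called 180. Without the first or the second D2-13B6 library, 216 and 198 anchors were called with 1 factor per chromosome.

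Gene lists of embryonic stem cells were described by counts, with an anchor standing for a gene when it held its start. Calls were more frequent in deeper anchors, and the lists differed in depth, with a median of 181 CPM for the naive and 172 for the heterochromatin anchors, 65.3, 44.7 and 67.4 for the formative, signalling and imprinted anchors, and 22.2 for the germline anchors. Off chromosome 11, 34.6% of the 1513 promoter anchors with at least 100 CPM were called, 229 higher and 294 lower, with a median of 0.0011. Between 30 and 100 CPM 27.7% were called, 278 higher and 459 lower, and under 30 CPM 11.2%. Of 26 naive pluripotency anchors, 6 were called higher and 2 lower, with a median of 0.18. These were the transcription factor genes Sox2 at 0.43, Nanog at 0.28, Esrrb at 0.43 and Tbx3 at 0.51, and Tdgf1, a co-receptor for Nodal, at 0.62 and Fbxo15 at 0.36. The lower ones were Zfp42 at -0.42 and Nr5a2 at -0.59. With 1 factor per chromosome, 10 were higher and 1 lower, with a median of 0.28, and Nr5a2 was not called (edgeR false discovery rate 0.0653). Nanog was not called with the trend on abundance removed (edgeR false discovery rate 0.0759). Pou5f1, which encodes OCT4, had 440 and 532 CPM in B6-13D2 and 502 and 523 in D2-13B6 and was not called. The summed level of the list was 5002 and 5531 CPM in the B6-13D2 libraries and 5870 and 6345 in the D2-13B6 libraries. The naive calls moved with the libraries used, and a congenic line with a library left out had 1 library. All 8 kept their sign whichever library was left out. The log2 difference ran from 0.37 to 0.64 at Tbx3, from 0.17 to 0.38 at Nanog and from -0.67 to -0.52 at Nr5a2. Of the 8, 4 passed without the first B6-13D2 library, 5 without the first D2-13B6 library and 2 without the second. The same held for the 10 formative and primed anchors, with 3 higher and 0 lower (among them the anchor of Zic2 with Zic5, and Lefty1), of which 0 passed whichever library was left out. Of the 3, 1 passed without either D2, either B6-13D2 or the first D2-13B6 library, and 0 without the second D2-13B6 library.

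Of 25 signalling anchors, 5 were higher and 3 lower, and 6 of the 8 passed whichever library was left out. Spry2, an inhibitor of receptor tyrosine kinase signalling, had 50.3 and 60.3 CPM in B6-13D2 and 24.7 and 28.9 in D2-13B6 (log2 difference -1.06). Lef1, another DNA-binding partner of beta-catenin, had 13.2 and 14.5 CPM against 27.9 and 37.0 (1.21), so it was higher where Tcf7l2 was lower. Bmp4, a ligand of the TGF-beta family, had 13.8 and 15.4 CPM against 30.6 and 29.8 (1.03). Socs3, a feedback inhibitor of the LIF pathway on chromosome 11, had 92.5 and 106 CPM against 174 and 195 (0.89), and with 1 factor per chromosome it was higher by 0.39 (edgeR false discovery rate 0.0166). Lif itself, also on chromosome 11, differed by 0.69 with a common factor and by 0.19 with 1 per chromosome, where it was not called. The receptor gene Lifr differed by -0.34 and the adaptor gene Gab1 by 0.38. The list's median was 0.23, and 0.014 with 1 factor per chromosome. Off chromosome 11 it stood at 3 higher and 3 lower of 20, with a median of 0.053.

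Of 26 heterochromatin anchors, 7 were higher and 1 lower, with a median of 0.13, and 3 of the 8 (Trim28, Cbx1 and Kdm1a) passed whichever library was left out. Without the first and the second D2-13B6 library, 5 and 4 of the 8 passed. Trim28, the corepressor of KRAB zinc finger proteins, had 265 and 316 CPM in B6-13D2 and 404 and 452 in D2-13B6 (log2 difference 0.55). Kdm1a, a histone demethylase, had 413 and 389 CPM against 293 and 275 (-0.50). Cbx1, a heterochromatin protein on chromosome 11, differed by 0.56 with a common factor and by 0.06 with 1 per chromosome. The other higher members were Suv39h1, Ehmt1, Hells, Zfp57 and L3mbtl2, at 0.40 to 0.69. Zfp57, a KRAB zinc finger protein that guards imprints, had 946 and 982 CPM against 1204 and 1345.

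Of 16 imprinted anchors, 6 were higher and 2 lower, with a median of 0.29, and 0.15 off chromosome 11. Plagl1, a zinc finger gene, had 129 and 134 CPM in B6-13D2 and 72.4 and 82.5 in D2-13B6 (log2 difference -0.76), and Slc38a4, an amino acid transporter, differed by -0.57. Igf2r was higher by 1.10, Mest by 0.69, Trappc9 by 0.52 and the anchor of Peg3 and Usp29 by 0.44. With library totals alone, 4 imprinted anchors were higher, without Mest and Peg3 with Usp29 (edgeR false discovery rates 0.0529 and 0.0602), and with 1 factor per chromosome 3 were. Zrsr1 and Commd1, which overlap on chromosome 11, were higher by 0.77 and 0.67 with a common factor and were not called with 1 per chromosome. Plagl1, Zrsr1 and Commd1 were the 3 of 8 that passed whichever library was left out, and 5 of 8 passed without any single one of the 4 congenic libraries. Of the germline and 2-cell genes, 3 of 25 had a tested anchor, and Obox6 alone was called. No called list member changed its sign under another scaling. DESeq2 called 5 naive, 0 formative (0 also at an unadjusted p under 0.05), 6 signalling, 4 heterochromatin and 4 imprinted anchors.

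**Figure D5:**
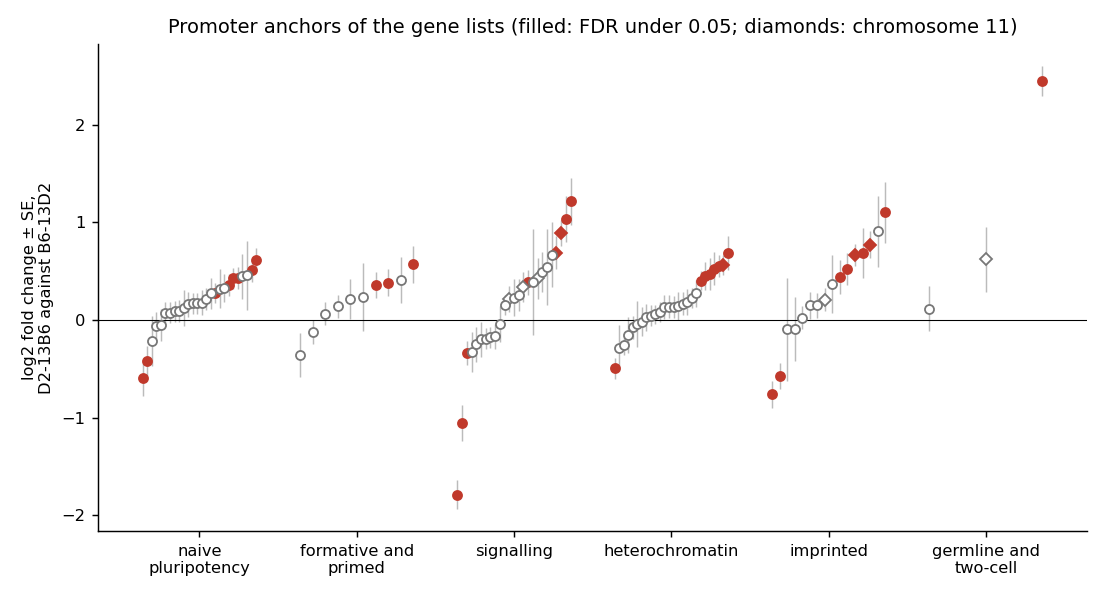
Log2 difference, D2-13B6 minus B6-13D2, of each tested anchor of the gene lists, with called anchors marked. The naive, formative and heterochromatin anchors lie close to 0 and mostly above it, and the wide values are Obox6 at 2.45 and Tcf7l2 at -1.79.

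The labelled cell type was checked by markers. All 26 naive pluripotency genes had a tested anchor. Among markers of other cells, 1 of 12 fibroblast, 3 of 10 primitive endoderm, 1 of 10 trophoblast and 1 of 10 neural genes had one, and 0 of them were called by edgeR with TMM factors (1 at an unadjusted p under 0.05) or by DESeq2 (0). With library totals alone, edgeR called the trophoblast anchor lower, by -0.31. The summed level of the fibroblast list was 10.3 to 12.6 CPM and that of the primitive endoderm list 22.9 to 32.9 over the 4 libraries. The trophoblast list had 123 and 137 CPM in B6-13D2 and 102 and 111 in D2-13B6. The part of cell composition in the calls of the gene lists was not tested.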

How the data were processed

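The deposited table held whole counts of read pairs per loop, not normalized, for 8 libraries with 2 technical replicates of each line. Per the labels, libraries came from an MNase-based H3K27ac HiChIP kit and were sequenced as paired reads. Per the submitters' processing notes, the build was mm10 and the tools included BWA 0.7.18, SAMtools 1.19.2 and edgeR 3.34.1, with no role given. How D2 reads were mapped and how loops were called is not given in the sources used here, and a loss of D2 reads at variants was not tested.

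The table listed 415681 loops between 30044 anchors, and 0 columns of per-sample values were without a sample. An anchor got the sum over its loops, with a loop inside 1 anchor counted once. Loops with at least 5 counts, and anchors with at least 10, in at least 2 libraries were tested with edgeR 4.0.16 (R 4.3.3, limma 3.58.1), TMM factors, 1 mean per line and all 8 libraries in 1 fit, with Benjamini-Hochberg adjustment. The tested loops held 79.0% to 84.3% of each library's counts. SE is the log2 difference over the square root of F. Coordinates are on GRCm38, genes are from GENCODE M21 and promoters from RefSeq. The share of chromosome 11 had exact binomial intervals and an exact permutation test.

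Named anchors and loops were called items with libraries that did not overlap, ranked by false discovery rate and at least 1 Mb apart. Off chromosomes 11 and 13 these were the 10 higher and 10 lower at protein-coding starts and the 3 and 3 elsewhere. On chromosome 13 they were the 5 and 5, on chromosome 11 with 1 factor per chromosome the 4 and 4, and for loops the 4 and 4, with 2 and 2 on chromosome 13. Of these and the listed genes, 2 items are not reported here. The members, lists, rules and windows were chosen with earlier results of these data known. Replicate numbers did not pair the libraries. Alternatives were other scalings, DESeq2 1.42.0, other filters, fewer libraries and a replicate block. Scripts were tested on simulated data.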

Additional observations from a re-analysis of the deposited data

Results flagged for a closer look

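The values here are tests of whether the difference between the congenic lines departed from that between the parental lines (log2, congenic minus parental, edgeR in the same fit, 22 of the 56 named results past the threshold). Among promoter anchors that were higher in D2-13B6, the departure was 1.90 at Crxos, 1.61 at Fads1, 1.52 at Hmga2, 1.03 at Blm, 0.74 at Itgav and 0.68 at Apela. The named sites were picked for a small false discovery rate between the congenic lines, which favours a departure in that direction, so their number cannot be set against the 6.16% of all tested anchors that passed the same test. Among lower anchors it was -1.11 at Tcf7l2, -0.98 at Clcn3, -0.70 at Tex21, -1.51 at Gm22365 and -1.01 at Gm25617 in Gsk3b. For loops it was -0.996 from Tex21 to Mthfd1 and -1.40 in Pknox2.

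On chromosome 13 the departure was 3.89 at the anchor of Gm48360 and other predicted genes and 2.31 at Fancc, both called in opposite directions in the congenic and parental comparisons. It was -2.44 near Cetn3, -0.84 at Nnt and Paip1, -0.83 at 2010111I01Rik and -1.38 at the anchor from 19950001, whose loop differed by -1.66. On chromosome 11, with 1 factor per chromosome, it was 0.81 at Vps53 and -1.002 at Gm25058. The reason for these departures was not tested.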

How the results depend on the processing

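All 56 named anchors and loops kept their direction in every alternative run for them, and 53 also kept their call. The 3 exceptions came without a count filter, where among others the loops at Stard3nl and from 19950001 on chromosome 13 had adjusted p of 0.118 and 0.0514 (edgeR). Without that filter, edgeR called 52 loops (10031 at an unadjusted p under 0.05), 44 off chromosomes 11 and 13, 5 on chromosome 11, 3 on chromosome 13, and 0 for the difference from the parents (6352 unadjusted), with 263489 loops tested. DESeq2 called 1004 loops (764 off chromosomes 11 and 13, 180 on chromosome 11, 60 on chromosome 13) and 2176 anchors (1669, 406 and 101). It called 127 loops and 374 anchors for the difference from the parents, and 159 anchors of chromosome 11 with 1 factor per chromosome. It gave no adjusted p for 1087 of edgeR's loop calls and 378 of its anchor calls. Under DESeq2, 84.6% of calls off chromosomes 11 and 13 had the parental sign, and 0% of 7 at 65 to 70 Mb of chromosome 13. With 1 factor per chromosome, chromosome 11 had 328 called loops and 348 called anchors. The cause of these changes was not tested.

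Leaving out each library in turn gave 1896 to 4073 loops (1469 to 3216 off chromosomes 11 and 13, 339 to 704 on chromosome 11, 88 to 172 on chromosome 13, 164 to 539 for the difference). It gave 3013 to 5667 anchors (2334 to 4581, 544 to 849, 135 to 237, and 497 to 1736), and 198 to 397 on chromosome 11 with 1 factor per chromosome. The share with the parental sign ran from 73.1% to 83.1%, and at 65 to 70 Mb of chromosome 13 from 0% to 10.53%. With replicate number as a block, 3475 loops and 4760 anchors were called, and 981 anchors for the difference. The numbers did not pair the libraries (deviations of same-numbered congenic libraries correlated at 0.026), and no count moved by over 1.5 times under the block. Loops with few counts limit what could be called.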

Other observations

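Further windows outside chromosomes 11 and 13 were looked up after their values were seen. At 140 to 145 Mb of chromosome 3, with a median of 0.52, Lmo4, a LIM-domain transcription cofactor gene, was higher by 1.94 in D2-13B6 and Kyat3, a kynurenine aminotransferase gene, by 0.76. At 15 to 20 Mb of chromosome 17 the median was 0.46. Among anchors called in opposite directions in both comparisons were also Gm5493, at -0.90 here and 0.53 between the parents, and the anchor of Galp and Zscan5b, at 0.69 and -0.47. On the X chromosome, 73.2% of tested anchors were higher in D2 than in B6, and 54.6% were higher in D2-13B6 than in B6-13D2. Of these anchors, 45 were called in each direction between the congenic lines.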
